A study of Drosophila melanogaster with 21 samples.

Results

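The genes described here encode the motors and motor-linked proteins of axonal transport in Drosophila melanogaster: Khc, Klc, unc-104, Klp64D, Klp68D, Dhc64C, sw, milt and Miro. They were chosen by name, and all 9 were found among the 7076 genes of the RNA table. Of the 26121 open-chromatin peaks of the ATAC-seq table, 26 had one of these genes as their nearest gene. The libraries were made from wild type L1 neurons of the pupal brain, isolated by fluorescence-activated cell sorting, at 40, 60 and 72 h after puparium formation. L1 is a monopolar neuron of the lamina, the outermost neuropil of the fly visual system, and the ages cover the growth of its axon terminal and the formation of its synapses. Bulk RNA-seq (SMART-seq2) gave 2 libraries at 40 h, 3 at 60 h and 2 at 72 h, and bulk ATAC-seq, which marks open chromatin by transposase insertion, gave 2 libraries at each age. The study's 8 single-cell samples were not analysed here. The labels give neither the fluorescent driver used for sorting nor whether libraries of one age came from separate dissections, so p-values measure the spread between these libraries, which may be technical.

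An axon depends on cargo carried along microtubules from and to the cell body. Kinesin-1, a pair of Khc heavy chains with Klc light chains, carries vesicles and mitochondria outwards; kinesin-3, encoded by unc-104, carries synaptic vesicle precursors; and heterotrimeric kinesin-2 is built from Klp64D, Klp68D and the accessory subunit Kap3. Cytoplasmic dynein, whose heavy chain is Dhc64C and whose intermediate chain is sw, carries cargo back to the cell body. Mitochondria are attached to kinesin-1 through milt, an adaptor that binds Khc, and Miro, a GTPase of the mitochondrial outer membrane.

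RNA levels are RPKM (reads per kilobase of gene, scaled to library size), and ATAC levels are reads per kilobase of peak on the same depth scale. Division by length does not correct for uneven coverage along a gene, which was not tested. Counted lengths ran from 2065 bp for Klc to 14597 bp for Dhc64C, so ranks and ratios between genes carry this limit. Libraries of one age correlated at 0.976 to 0.987 in RNA, and at 0.968 (40 h), 0.842 (60 h) and 0.861 (72 h) in ATAC. The summed RNA of 8 neuron and L1 markers was 792 to 837 RPKM at 40 h, 1195 to 1318 at 60 h and 1763 to 2199 at 72 h. Among them svp, a transcription factor used to mark L1, averaged 120 ± 6.51, 115 ± 7.35 and 130 ± 12.4 RPKM at the 3 ages, and the glutamate transporter gene VGlut 216 ± 12.7, 312 ± 26.4 and 609 ± 128 (SD, n = 2, 3 and 2), while ap and bab1 of the same list averaged under 2 RPKM at each age. From 40 to 72 h 3 of these markers rose (VGlut, nSyb, Syt1) and 2 fell (elav by 1.56 and brp by 1.18, log2), with a median of 0.11. Markers of other cells moved with age too. Summed RNA of 10 glial markers was 80.2 to 96.5, 87.7 to 126 and 574 to 1708 RPKM at the 3 ages, the highest in 72 h replicate 2. The glial factor gene repo averaged 0.696 ± 0.626, 1.00 ± 0.860 and 10.9 ± 8.19 RPKM. From 40 to 72 h 8 of the 10 glial markers rose, 1 fell (Gli, by 0.90, log2) and 1 did not pass (moody). Gli alone held 55.9 and 55.8 RPKM in the 40 h libraries. Summed RNA of 12 photoreceptor markers was 40.3 to 128, 117 to 578 and 66.5 to 173 RPKM. Within 60 h it was 306, 578 and 117 in replicates 1 to 3. From 40 to 60 h 3 of these 12 rose and 1 fell (trpl). Over 40 to 72 h 3 rose and 1 fell, again trpl, by 1.62 (log2). Summed RNA of 5 hemocyte markers was 25.3 to 27.4, 40.5 to 49.8 and 62.5 to 84.3 RPKM, with Hml at 0 in at least 1 library, as was the photoreceptor gene Arr1. Of these, crq alone rose from 40 to 72 h (70.6 RPKM at 72 h, 19.4 at 40 h), Col4a1 and vkg fell (by 0.89 and 0.83, log2), and the other two were below the filter. The part of these cells in the motor results was not tested. In bulk RNA, fewer cells of a type and less RNA per cell cannot be told apart.

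The motor genes spanned a wide range of RNA levels, and their order shifted with age. Klc was the highest and Dhc64C the lowest of the 9 at every age. At 40 h unc-104 and Khc followed Klc with overlapping libraries, ahead of Klp64D and Klp68D, which also overlapped, and then Miro, milt, sw and Dhc64C. At 60 h Klp64D and unc-104 overlapped below Klc, Klp68D and Khc overlapped below them, and milt stood above Miro. At 72 h unc-104 was second, above the overlapping Klp64D and Klp68D, and Khc overlapped with Miro below them. The lowest gene, Dhc64C, was still covered by 1371 to 2703 reads a library and the highest, Klc, by 7754 to 17047. The part of counting error in the spread between libraries was not tested.

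**Figure D1:**
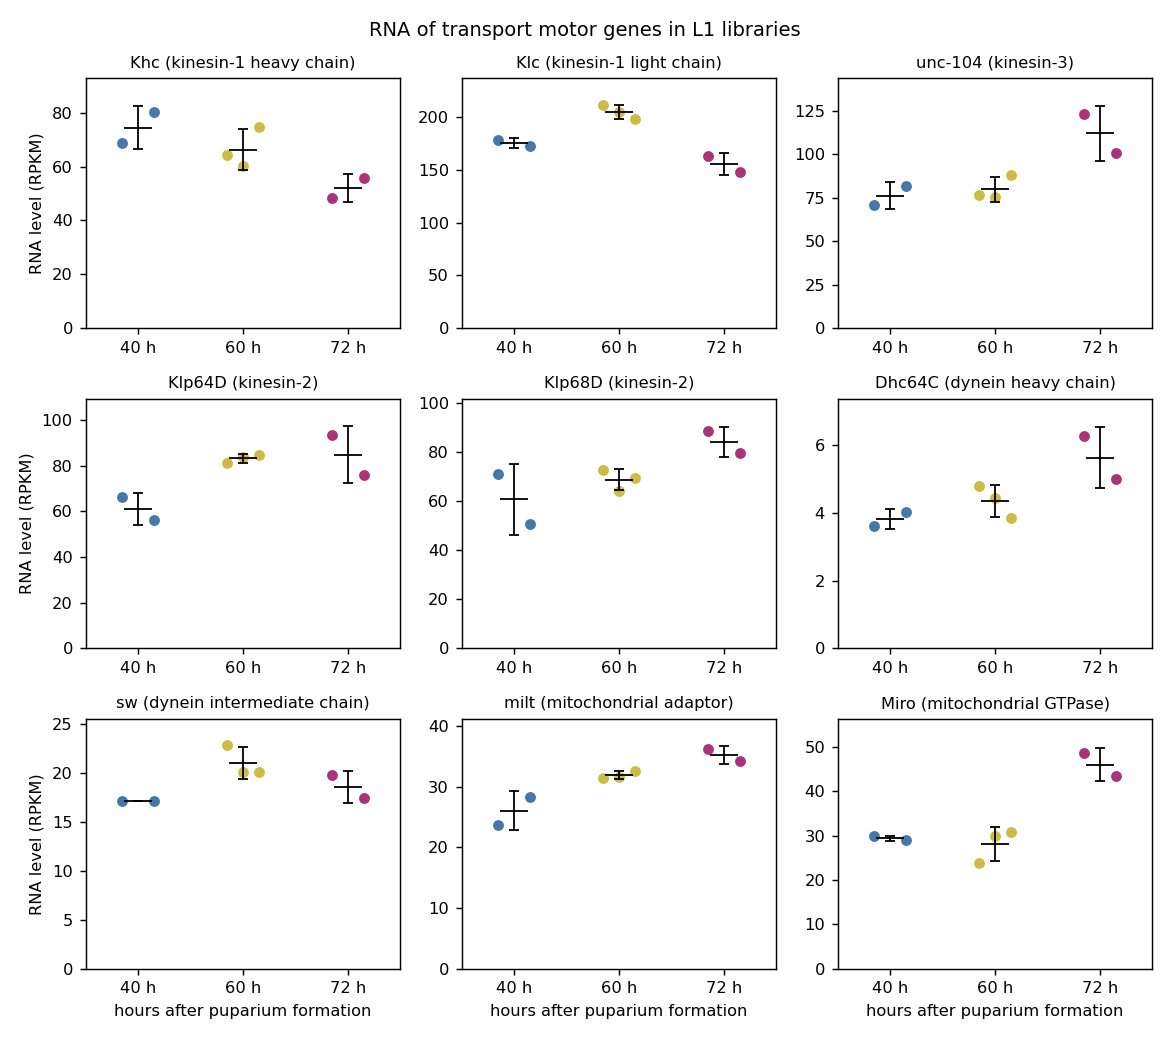
RNA level (RPKM, linear axis from 0, own scale per panel) of the 9 genes at 40, 60 and 72 h after puparium formation. Each point is a library, the horizontal bar is the mean and the error bar the SD (n = 2, 3 and 2). Miro and unc-104 stand higher at 72 h than at 60 h or 40 h in every library, Khc is lowest at 72 h, and Klc is highest at 60 h on the deposited scale.

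Between 40 and 72 h, 5 of the 9 genes rose (unc-104, Klp64D, Klp68D, milt, Miro), 1 fell (Khc) and 3 did not pass the test (Klc, Dhc64C, sw), by limma with Benjamini-Hochberg adjustment over all 6939 tested genes at 0.05. Of all tested genes 59.3% passed in this comparison, 30.2% higher and 29.1% lower. The members' changes were modest in size: the largest was 0.63 on the log2 scale, and 53.9% of all tested genes changed by more in either direction. The median of the 9 changes was 0.46, and the median of all genes was -0.01. From 40 to 60 h 1 gene rose (Klp64D) and none fell (3 and 0 at an unadjusted p under 0.05), with 47.7% of all genes past the test, 25.2% higher and 22.5% lower, and the members' median was 0.19. From 60 to 72 h 2 rose (unc-104, Miro) and 1 fell (Klc), with 33.0% of all genes past it, 16.6% higher and 16.4% lower. The changes of the 2 steps differed in 2 of the 9 genes (Klc, Miro), against 26.9% of all genes, by limma on the second step minus the first. These counts depend on scaling. In 1 alternative, values were scaled to the reads recovered from the table, in place of the effective library sizes behind the deposited RPKM. The median of all genes then itself moved by -0.40 from 40 to 72 h, and 0 genes rose and 2 fell (Khc, Klc). Relative to that shifted median the members stood close to the values given here, from -0.54 for Khc to 0.60 for Miro. With quantile normalization 3 rose (Dhc64C, milt, Miro) and 2 fell (Khc, Klc). Without 72 h replicate 1, 1 gene of the 6 passed (Miro), and without 40 h replicate 2, 3 passed. All 6 passed without 72 h replicate 2.

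**Figure D2:**
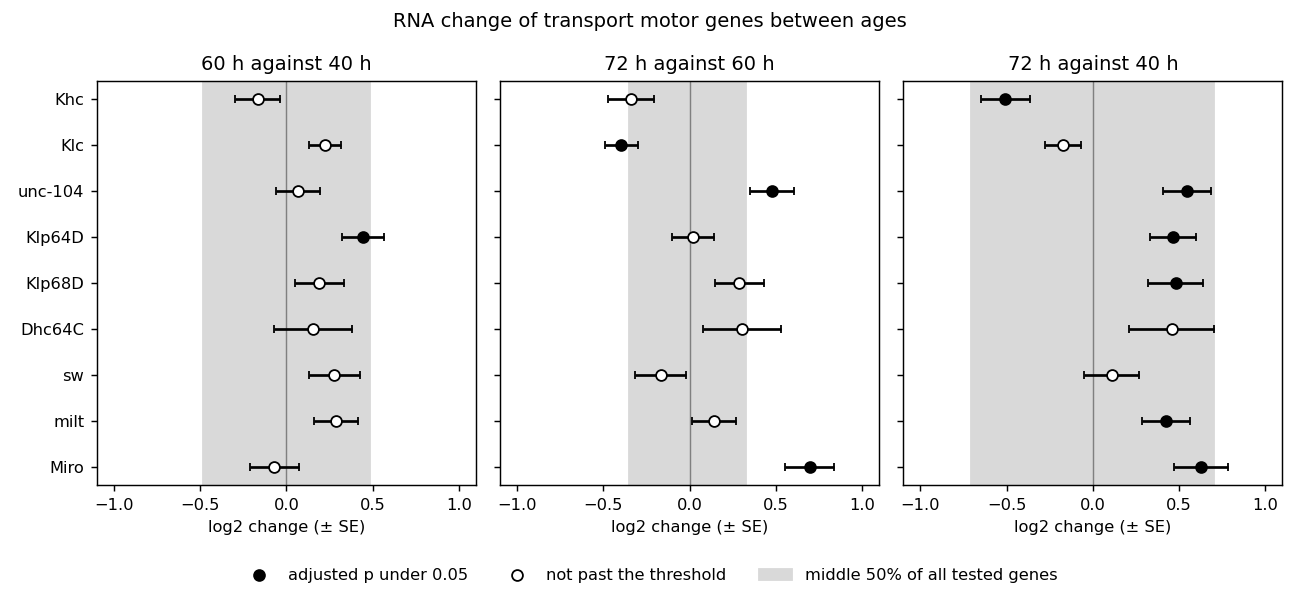
Log2 change in RNA (log2 of RPKM + 1, ± SE from limma) of each gene for the 3 comparisons of ages. Filled points passed an adjusted p of 0.05, open points did not, and the grey band holds the middle 50% of all 6939 tested genes. Most points lie inside the band, with Klc below it and unc-104 and Miro above it in the comparison of 72 h with 60 h.

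Both kinesin-1 subunits, Khc and Klc, had their lowest libraries at 72 h, and no difference between them was tested. Khc, the motor subunit, had 68.8 and 80.2 RPKM in the 40 h libraries, 64.1, 60.2 and 74.7 in those of 60 h, and 48.4 and 55.8 in those of 72 h. Every 72 h library was below every library of the earlier ages, while 40 h and 60 h overlapped. From 40 to 72 h Khc fell by 0.51 ± 0.14 (log2, SE), 0.700-fold in means, with an adjusted p of 0.0108 by limma. The change from 40 to 60 h was -0.17 ± 0.13 (adjusted p = 0.324, limma) and that from 60 to 72 h -0.34 ± 0.13 (adjusted p = 0.0698, limma), so neither step alone passed. The fall was -0.40 (adjusted p = 0.0727, limma) without 40 h replicate 2 and -0.41 (adjusted p = 0.0729, limma) without 72 h replicate 1. Of the 60 h libraries, replicate 3, with the lowest photoreceptor sum, was highest for Khc, unc-104, Klp64D, milt and Miro and lowest for Klc and Dhc64C. Without replicates 1 and 2 of that age, the change of Khc from 40 to 60 h was 0.01.

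Klc, which couples the motor to cargo, was highest at 60 h on the deposited scale and lowest at 72 h. Its libraries held 179 and 173 RPKM in the 40 h libraries, 212, 205 and 198 in those of 60 h, and 163 and 149 in those of 72 h, and the 3 ages did not overlap. The first step gave 0.22 ± 0.09 (adjusted p = 0.0767, limma) and did not pass, and its sign turned after quantile normalization (-0.15) and scaled to recovered reads (-0.031). In the second step Klc fell by 0.40 ± 0.09 (adjusted p = 0.00865, limma), and the changes of the 2 steps differed by -0.62 ± 0.16 (adjusted p = 0.0152, limma on the difference). That difference did not pass in 5 of 15 alternatives, among them quantile normalization (-0.36, adjusted p = 0.0862, limma) and leaving out 60 h replicate 1 (-0.57, adjusted p = 0.0644, limma) or 60 h replicate 2 (-0.62, adjusted p = 0.0628, limma). Without 72 h replicate 2 the second step was -0.33 (adjusted p = 0.0622, limma), and with only 60 h replicate 3 kept at that age it was -0.35 (adjusted p = 0.210, limma). From 40 to 72 h Klc changed by -0.17 ± 0.10 (adjusted p = 0.174, limma), but by -0.65 (adjusted p = 0.00015, limma) after quantile normalization and by -0.61 (adjusted p = 0.000214, limma) scaled to recovered reads. The Klc to Khc ratio of RPKM was 2.60 and 2.15 in the 40 h libraries, 3.31, 3.41 and 2.66 in those of 60 h, and 3.37 and 2.66 in those of 72 h, above the 40 h libraries in every later library, by the least in 60 h replicate 3 (2.66).

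The kinesin-3 gene unc-104 rose late. It had 70.8 and 81.8 RPKM in the 40 h libraries, 76.5, 75.3 and 88.4 in those of 60 h, and 123 and 101 in those of 72 h. The first 2 ages overlapped and the 72 h libraries stood above all others. The change from 40 to 60 h was 0.07 ± 0.13 (adjusted p = 0.689, limma), and from 60 to 72 h unc-104 rose by 0.48 ± 0.13 (adjusted p = 0.0147, limma). Over the whole interval it rose by 0.55 ± 0.14, 1.47-fold in means (adjusted p = 0.00611, limma). The difference between the steps, 0.41 ± 0.21, did not pass (adjusted p = 0.193, limma). Without 72 h replicate 1 the rise from 60 to 72 h was 0.34 (adjusted p = 0.144, limma) and that from 40 to 72 h 0.41 (adjusted p = 0.0549, limma), and without 60 h replicate 2 the rise from 60 to 72 h was 0.44 (adjusted p = 0.0543, limma). Of the 3 libraries at 60 h, replicate 3, with the lowest photoreceptor sum, was highest, and against it alone the rise was 0.33 (adjusted p = 0.306, limma). The late rise of unc-104 and the fall of Khc changed their ratio in each library. It was 1.03 and 1.02 in the 40 h libraries, 1.19, 1.25 and 1.18 in those of 60 h, and 2.54 and 1.81 in those of 72 h, so that RNA of kinesin-3 exceeded that of the kinesin-1 heavy chain clearly in both 72 h libraries and barely in those of 40 h.

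The 2 kinesin-2 motor subunits were present at similar levels, with ratios of Klp68D to Klp64D between 0.763 and 1.07 in all 7 libraries. Klp64D had 66.1 and 56.0 RPKM in the 40 h libraries, 81.1, 84.0 and 84.8 in those of 60 h, and 93.6 and 76.1 in those of 72 h. All later libraries were above those of 40 h, and 60 h and 72 h overlapped. Klp64D rose by 0.45 ± 0.12 from 40 to 60 h (adjusted p = 0.0116, limma) and stood 0.02 ± 0.12 apart from 60 to 72 h (adjusted p = 0.929, limma). Klp68D had 71.0 and 50.5 RPKM in the 40 h libraries, 72.6, 64.1 and 69.3 in those of 60 h, and 88.4 and 79.7 in those of 72 h, with a wide spread at 40 h and the highest values at 72 h. Over the whole interval Klp64D rose by 0.46 ± 0.13 (adjusted p = 0.0118, limma) and Klp68D by 0.48 ± 0.16 (adjusted p = 0.0227, limma), 1.39-fold and 1.38-fold in means. The steps of Klp68D were 0.19 ± 0.14 (adjusted p = 0.305, limma) and 0.29 ± 0.14 (adjusted p = 0.157, limma). These calls leaned on single libraries. Without 40 h replicate 2 the 72 h change was 0.35 (adjusted p = 0.0798, limma) for Klp64D and 0.24 (adjusted p = 0.187, limma) for Klp68D, and the 60 h change of Klp64D was 0.33 (adjusted p = 0.0984, limma). Without 72 h replicate 1 the 72 h changes were 0.32 (adjusted p = 0.0984, limma) and 0.41 (adjusted p = 0.113, limma). Without 40 h replicate 1 the 60 h change of Klp68D was 0.43 and passed (adjusted p = 0.0307, limma). The 60 h change of Klp64D against 60 h replicate 3 alone was 0.47 (adjusted p = 0.102, limma). Kap3, the third subunit, was named after its values were seen; it averaged 37.9 ± 2.26 RPKM at 40 h, 45.4 ± 5.97 at 60 h and 73.5 ± 10.6 at 72 h (SD, n = 2, 3 and 2), and rose by 0.93 ± 0.16 over the interval (adjusted p = 0.000456, limma).

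Neither Dhc64C nor sw passed the test in any comparison of ages. Dhc64C had 3.61 and 4.03 RPKM in the 40 h libraries, 4.79, 4.43 and 3.86 in those of 60 h, and 6.28 and 4.99 in those of 72 h, so that the 72 h libraries were the highest of the 7 and the earlier ages overlapped. Its change from 40 to 72 h was 0.46 ± 0.25 (adjusted p = 0.137, limma), and it passed in 3 of 15 alternatives: at 0.55 (adjusted p = 0.0173) by limma-voom on the recovered reads, at 0.62 (adjusted p = 0.0464, limma) after quantile normalization and at 0.46 (adjusted p = 0.0455, limma) with no trend. The steps of Dhc64C were 0.15 ± 0.23 (adjusted p = 0.614, limma) and 0.31 ± 0.23 (adjusted p = 0.347, limma). Its level ranked between the 17.7th and 28.5th percentile of the table over the libraries, the lowest of the motors. The intermediate chain sw had 17.2 and 17.2 RPKM in the 40 h libraries, 22.9, 20.1 and 20.2 in those of 60 h, and 19.8 and 17.5 in those of 72 h. Its changes were 0.28 ± 0.15 from 40 to 60 h (adjusted p = 0.148, limma), -0.17 ± 0.15 from 60 to 72 h (adjusted p = 0.429, limma) and 0.11 ± 0.16 over the interval (adjusted p = 0.588, limma). Values of sw are uncertain, because the X chromosome carries 7 near-identical Sdic genes, and reads could be split between them and sw. The sw to Dhc64C ratio was 4.76 and 4.27 in the 40 h libraries, 4.79, 4.54 and 5.23 in those of 60 h, and 3.15 and 3.50 in those of 72 h, below all earlier libraries at the last age.

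**Figure D3:**
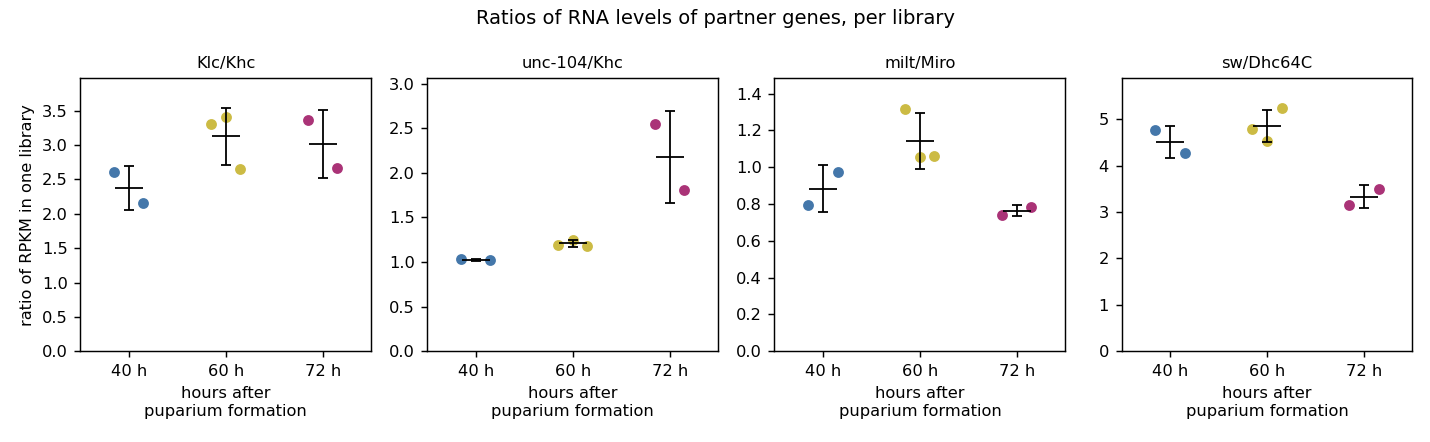
Ratio of RPKM of a pair of genes within one library (linear axis from 0), at 40, 60 and 72 h after puparium formation. Points are libraries, with mean and SD (n = 2, 3 and 2). The ratio of unc-104 to Khc is 2.54 and 1.81 at 72 h against 1.18 to 1.25 at 60 h, and the ratios of milt to Miro and of sw to Dhc64C are lowest at 72 h. The ratios carry no test.

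Of the mitochondrial pair, Miro changed most. It had 29.9 and 29.0 RPKM in the 40 h libraries, 23.8, 30.0 and 30.8 in those of 60 h, and 48.8 and 43.4 in those of 72 h, so that the first 2 ages overlapped and the last lay above them. Miro rose by 0.70 ± 0.14 from 60 to 72 h, 1.64-fold in means (adjusted p = 0.00371, limma), after -0.07 ± 0.14 from 40 to 60 h (adjusted p = 0.715, limma), and it rose by 0.63 ± 0.16 over the interval (adjusted p = 0.00555, limma). The difference between the steps was 0.77 ± 0.24 (adjusted p = 0.0371, limma on the difference), a call lost in 8 of 15 alternatives: with the replicate block (adjusted p = 0.0531, limma), with no trend, with 60 h replicate 3 alone at its age (0.51), and without 40 h replicate 1 (0.75), 40 h replicate 2 (0.79), 60 h replicate 1 (0.54), 60 h replicate 2 (0.86) or 72 h replicate 1 (0.69). The rise from 40 to 72 h passed in 14 of 15 alternatives, the exception being scaling to recovered reads (0.20, adjusted p = 0.264, limma), and that from 60 to 72 h in 14 of 15, the exception being 60 h replicate 3 as the sole library of its age (0.57, adjusted p = 0.0915, limma). The adaptor milt had 23.7 and 28.3 RPKM in the 40 h libraries, 31.4, 31.6 and 32.6 in those of 60 h, and 36.2 and 34.1 in those of 72 h, and the 3 ages did not overlap. It rose by 0.43 ± 0.14 over the interval (adjusted p = 0.0226, limma), with steps of 0.29 ± 0.13 (adjusted p = 0.0890, limma) and 0.14 ± 0.13 (adjusted p = 0.456, limma). Without 40 h replicate 1 the rise of milt was 0.30 (adjusted p = 0.130, limma), without 72 h replicate 1 it was 0.38 (adjusted p = 0.0957, limma), and with 60 h replicate 3 as the sole library of its age it was 0.43 (adjusted p = 0.0612, limma). The milt to Miro ratio was 0.794 and 0.973 in the 40 h libraries, 1.32, 1.05 and 1.06 in those of 60 h, and 0.742 and 0.786 in those of 72 h, so milt exceeded Miro in the 60 h libraries and was below it in the others.

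Genes with the most similar RNA profile over the 7 libraries were looked up for each member among 6930 other genes, as the smallest Euclidean distance between log2 profiles centred on their means. They were CG8202 for Khc (distance 0.159), ocm for Klc (0.16), trio for unc-104 (0.173), GATAd for Dhc64C (0.12), CG9425 for sw (0.0999), Ank2 for Klp64D (0.13), Pcmt for Klp68D (0.134), Efa6 for milt (0.132) and CG15922 for Miro (0.23). The libraries share depth and age, so a small distance describes a like course over these libraries and no more. For unc-104, the gene so chosen, trio, had 5.42 and 5.91 RPKM in the 40 h libraries, 5.65, 5.44 and 6.47 in those of 60 h, and 8.49 and 7.85 in those of 72 h.

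Around this core, transport genes of other complexes changed in varied directions. The dynein and dynactin list had 15 tested genes, including Dhc64C and sw. From 40 to 72 h 6 rose, 2 fell and 7 did not pass, with a median change of 0.33, where 59.3% of all genes passed. From 40 to 60 h 3 rose and 2 fell (47.7% of all genes passed) and from 60 to 72 h 2 rose and 2 fell (33.0%). The count from 40 to 60 h was 3 with any single library of 60 h left out, where 41.7% to 43.4% of all genes passed. Both counts were lower in some fits that left 1 library at an age, and fewer of all genes passed there too. The 2 that fell were the actin-capping subunits cpa and cpb, which also cap actin filaments outside dynactin: cpa by 1.22 ± 0.12 (adjusted p = 7.74e-06, limma) and cpb by 0.90 ± 0.16 (adjusted p = 0.000519, limma). Among those that rose were Arp10, at the pointed end of the dynactin filament, by 0.82 ± 0.20 (adjusted p = 0.00436, limma) and DCTN4-p62, another pointed-end subunit, by 0.71 ± 0.16 (adjusted p = 0.00354, limma). Of 5 dynein regulators, 2 rose (hook by 0.96 ± 0.12 and nudE by 0.63 ± 0.15, adjusted p = 5.07e-05 and 0.00472, limma) and 0 fell (0 also at an unadjusted p under 0.05), with a median of 0.63. Hook proteins link dynein to cargo in mammals, and nudE binds dynein together with Lis-1.

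Of 13 kinesin adaptors and cargo linkers, 7 rose, 1 fell and 5 did not pass from 40 to 72 h (59.3% of all genes passed), with a median of 0.64. From 40 to 60 h 6 of them rose and 0 fell (0 also at an unadjusted p under 0.05), where 47.7% of all genes passed, 25.2% higher. With 60 h replicate 3 alone at its age, fewer of them and fewer of all genes passed. CASK, a scaffold of the synaptic membrane, rose by 1.30 ± 0.15 (adjusted p = 2.39e-05, limma), averaging 121 ± 17.7 RPKM at 72 h and 48.4 ± 6.92 at 40 h (SD, n = 2 each). The JNK scaffold syd, which binds kinesin-1, rose by 1.15 ± 0.26 (adjusted p = 0.00275, limma), the amyloid precursor protein homologue Appl by 1.11 ± 0.12 (adjusted p = 1.48e-05, limma), and the SNARE gene Vti1a by 1.07 ± 0.17 (adjusted p = 0.000324, limma). The 1 that fell, named for that, was Liprin-alpha, an organizer of the presynaptic active zone, by 0.77 ± 0.15 (adjusted p = 0.00146, limma). Of 7 further kinesins tested, 2 rose, 0 fell (0 also at an unadjusted p under 0.05) and 5 did not pass, with a median of 0.29. Of all genes 59.3% passed from 40 to 72 h. Fewer of the 7 kinesins passed when replicate 1 of 40 h or of 72 h was left out, each leaving 1 library at its age. Fewer of all genes passed in those fits too. Kif3C, of the kinesin-2 family, averaged 4.05 ± 0.37 RPKM at 72 h and 0.591 ± 0.282 at 40 h and rose by 1.68 ± 0.30 on the log2(RPKM + 1) scale (adjusted p = 0.000676, limma). The minus-end motor ncd averaged 3.53 ± 0.491 RPKM at 72 h and 1.05 ± 0.826 at 40 h and rose by 1.20 ± 0.33 (adjusted p = 0.00896, limma), and the 1 pseudocount understates changes at such levels.

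From 40 to 72 h 59.3% of all genes passed, 30.2% higher and 29.1% lower. All 7 tested genes of mitochondrial fusion, fission and quality control passed over that interval. Of the 7, 6 rose and 1 fell, with a median of 0.91, and as few as 5 passed among the 15 alternatives. Marf, the mitofusin of the outer membrane, rose by 1.33 ± 0.15 (adjusted p = 1.93e-05, limma), averaging 84.0 ± 2.76 RPKM at 72 h and 32.8 ± 3.35 at 40 h (SD, n = 2 each). The kinase gene Pink1 rose by 1.28 ± 0.16 (adjusted p = 4.27e-05, limma), the ubiquitin ligase gene Mul1 by 1.09 ± 0.29 (adjusted p = 0.00763, limma) and the fission gene Fis1 by 0.91 ± 0.11 (adjusted p = 4.58e-05, limma). The gene that fell was clu, whose loss clusters mitochondria in fly cells, by 0.83 ± 0.14 (adjusted p = 0.000503, limma). From 40 to 60 h 5 of the 7 had risen and 1 had fallen (47.7% of all genes passed), and from 60 to 72 h 3 rose and 1 fell (33.0%). Those 4 were 2 when 60 h replicate 1 or 2 was left out, where 26.3% and 27.1% of all genes passed. The 6 and 4 were lower with 60 h replicate 3 alone at its age, as were the 4 without either library of 72 h. These fits left 1 library at an age, and fewer of all genes passed in them.

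The 26 peaks of open chromatin were spread unevenly: 8 near sw, 4 near unc-104, 3 near Miro, 2 each near Khc, Klc, Dhc64C, Klp68D and milt, and 1 near Klp64D. Positions are given as deposited, and the genome build is not given in the sources used here. Of the 26, 11 lay at distance 0 from the start of their gene and 15 away from it, and 23 passed the filter on low levels, with 3 of the sw peaks left out. From 40 to 72 h 3 of the 23 rose and 7 fell, with a median of -0.18, where 55.4% of all peaks passed, 26.0% higher and 29.4% lower. At distance 0, 1 of 11 rose and 4 fell, against 38.4% of all such peaks past the test, 5.47% higher and 32.9% lower. Those that fell include pieces 1 bp apart of one region at Miro and of one at unc-104, so the counts are not of independent peaks. From 40 to 60 h 2 rose and 2 fell, where 26.7% of all peaks passed, 10.7% higher and 16.0% lower. From 60 to 72 h 0 passed by limma (3 at an unadjusted p under 0.05, all lower), 0 by limma-voom and 1 after quantile normalization, where 5.11% of all peaks passed by limma, 0.723% higher and 4.39% lower. Without 60 h replicate 2, which left 1 library at that age, the Miro peak at 3R:24038820-24039469 changed by -0.84 in that step. More of all peaks passed in that fit than with all libraries. The steps differed in 1 of the 23 peaks, against 10.6% of all peaks. The split depends on scaling. Scaled to recovered reads, which moved the median of all peaks by 0.44, 5 rose and 3 fell from 40 to 72 h. In that setting 63.7% of all peaks passed. After quantile normalization 2 rose and 3 fell, where 43% of all peaks passed. Left out singly, 40 h replicate 1, 40 h replicate 2 and 72 h replicate 2 gave 6, 5 and 6 peaks past the test in place of 10.

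**Figure D4:**
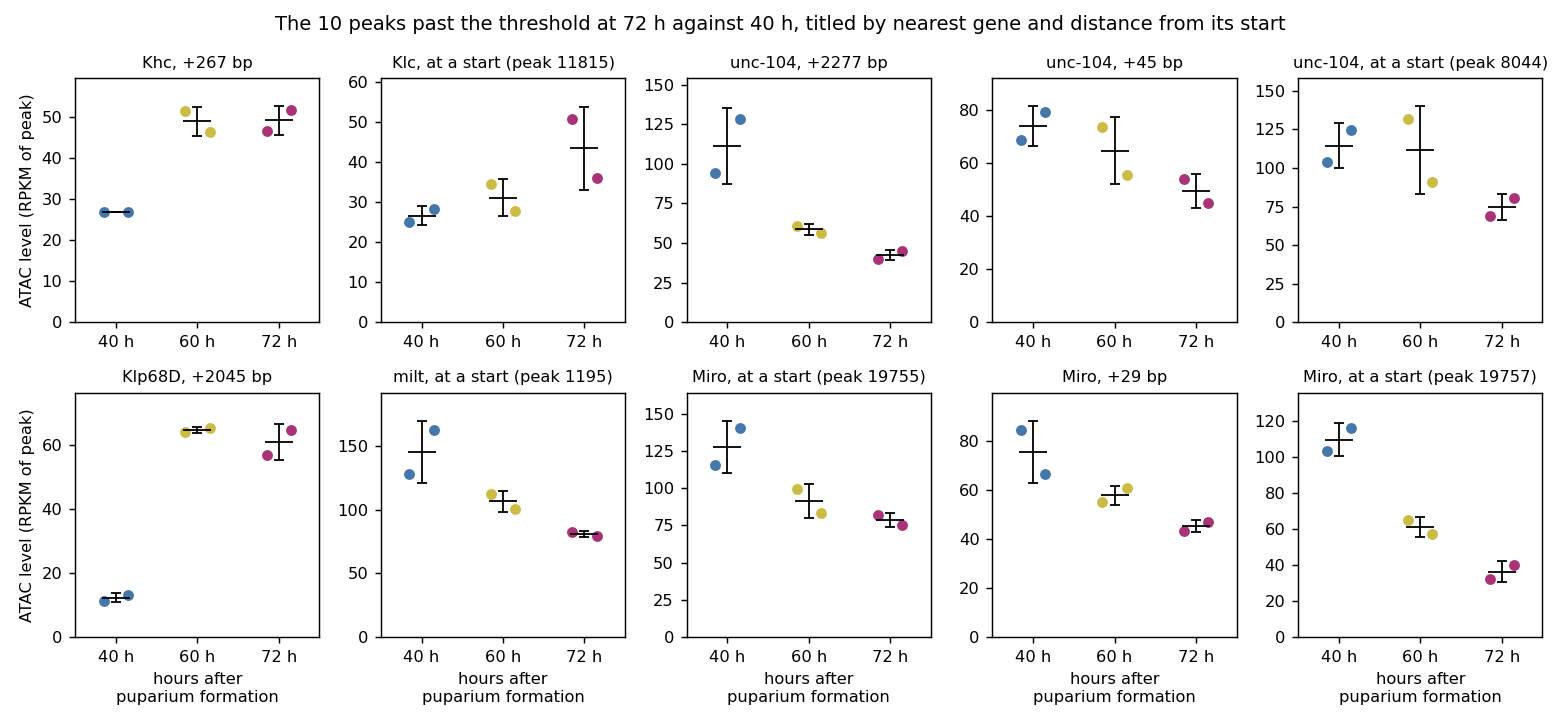
ATAC level (RPKM of the peak, linear axis from 0) of the 10 peaks that passed the test between 72 h and 40 h, titled by nearest gene and distance from its start in bp. Points are libraries, with mean and SD (n = 2 per age). The Klp68D peak lies at 57.1 to 65.4 in the later libraries, against 11.4 and 13.4 in those of 40 h, and the peaks of Miro, milt and unc-104 fall.

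The largest chromatin change near a motor gene was at Klp68D, in a peak 2045 bp from its start (3L:11797659-11798440). Its levels were 11.4 and 13.4 in the 40 h libraries, 64.2 and 65.4 in those of 60 h, and 57.1 and 64.9 in those of 72 h. Accessibility was low in both 40 h libraries and high in all later ones. It rose by 2.30 ± 0.22 from 40 to 60 h, 5.23-fold in means (adjusted p = 2.49e-05, limma), and changed by -0.09 from 60 to 72 h (adjusted p = 0.821, limma), a difference between steps of -2.39 ± 0.38 (adjusted p = 0.00274, limma). The rises at 60 h and 72 h passed in all 13 alternatives, and 5.24% of all tested peaks changed by more from 40 to 72 h. The peak at the Klp68D start (3L:11795507-11795905) had 38.5 and 33.9 in the 40 h libraries, 39.5 and 33.1 in those of 60 h, and 32.6 and 39.6 in those of 72 h, a change of -0.01 (adjusted p = 0.981, limma). The RNA of Klp68D, given above, did not pass from 40 to 60 h.

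At Miro, 3 peaks lay 1 bp apart from each other around the start, so they are pieces of one open region and not independent. The one with the largest change (3R:24038820-24039469, distance 0) had 103 and 116 in the 40 h libraries, 65.0 and 57.4 in those of 60 h, and 32.1 and 40.3 in those of 72 h, and the ages did not overlap. It fell by 1.58 ± 0.21 from 40 to 72 h (adjusted p = 0.000103, limma, past the test in all 13 alternatives) and by 0.83 from 40 to 60 h (adjusted p = 0.0107, limma), and without 40 h replicate 2 the change to 60 h was -0.75 (adjusted p = 0.134, limma). From 60 to 72 h its change was -0.75 (adjusted p = 0.0625, limma), and without 60 h replicate 2 it was -0.84 and passed (adjusted p = 0.0242, limma). The neighbouring pieces had 115 and 140 in the 40 h libraries, 99.5 and 83.6 in those of 60 h, and 82.1 and 75.5 in those of 72 h (3R:24037476-24038608, distance 0), and 84.6 and 66.6, 55.2 and 60.8, and 43.6 and 47.0 (3R:24038610-24038818, distance 29 bp). They fell by 0.68 (adjusted p = 0.0128, limma) and 0.72 (adjusted p = 0.0130, limma) from 40 to 72 h. The first of these did not pass without 40 h replicate 2 (-0.54, adjusted p = 0.0864, limma), without 72 h replicate 2 (-0.62, adjusted p = 0.106, limma) or scaled to recovered reads (-0.28, adjusted p = 0.113, limma), and after quantile normalization it was -0.05 (adjusted p = 0.781, limma). The second did not pass without 40 h replicate 1 (-0.55), without 72 h replicate 1 (-0.66) or scaled to recovered reads (-0.32). Over the interval in which all 3 pieces fell, Miro RNA rose.

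At unc-104 and milt, too, peaks fell over an interval in which RNA rose. The unc-104 peak 2277 bp from the start (2R:16769767-16770223) had 94.3 and 128 in the 40 h libraries, 61.1 and 56.4 in those of 60 h, and 40.2 and 44.7 in those of 72 h, with no overlap of ages. It fell by 1.35 ± 0.21 from 40 to 72 h (adjusted p = 0.000364, limma, past the test in all 13 alternatives) and by 0.89 from 40 to 60 h (adjusted p = 0.00821, limma), and without 40 h replicate 2 the change to 60 h was -0.67 (adjusted p = 0.133, limma). From 60 to 72 h its change was -0.46 (adjusted p = 0.218, limma). The other 3 peaks of unc-104 also lay 1 bp apart; the one at the start (2R:16772457-16772733) had 103.96 and 125 in the 40 h libraries, 132 and 91.2 in those of 60 h, and 69.0 and 80.8 in those of 72 h. It fell by 0.60 from 40 to 72 h (adjusted p = 0.0384, limma), a call lost in 8 of 13 alternatives. The change was -0.01 (adjusted p = 0.956, limma) after quantile normalization and -0.20 (adjusted p = 0.375, limma) scaled to recovered reads. It was -0.73 (adjusted p = 0.0521, limma) without 40 h replicate 1, -0.47 (adjusted p = 0.209, limma) without 40 h replicate 2, -0.49 (adjusted p = 0.192, limma) without 72 h replicate 1 and -0.71 (adjusted p = 0.0764, limma) without 72 h replicate 2. Its neighbour 45 bp from the start fell by 0.57 (adjusted p = 0.0439, limma), a call lost in 9 of 13 alternatives, each that left out a library of 40 or 72 h among them (-0.44 to -0.70), and the piece at 355 bp changed by -0.23 (adjusted p = 0.383, limma). At milt, a peak at distance 0 (2L:7049057-7051052), named after its values were seen, had 128 and 162 in the 40 h libraries, 112 and 101 in those of 60 h, and 82.8 and 79.0 in those of 72 h, and fell by 0.82 ± 0.19 from 40 to 72 h (adjusted p = 0.0045, limma), with a change of -0.14 (adjusted p = 0.318, limma) after quantile normalization. The other milt peak (2L:7042063-7042813, distance 0) changed by -0.42 (adjusted p = 0.0792, limma).

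At the kinesin-1 genes the peaks past the test rose. The Khc peak 267 bp from the start (2R:16270494-16271704) had 26.8 and 26.9 in the 40 h libraries, 51.4 and 46.3 in those of 60 h, and 46.6 and 51.6 in those of 72 h, the later ages overlapping and both above 40 h. It rose by 0.84 from 40 to 60 h (adjusted p = 0.0114, limma) and by 0.85 ± 0.21 from 40 to 72 h (adjusted p = 0.0062, limma), with 0.01 between (adjusted p = 0.988, limma), while Khc RNA fell over the whole interval. Without 40 h replicate 2 these were 0.84 (adjusted p = 0.111, limma) and 0.85 (adjusted p = 0.0605, limma), without 40 h replicate 1 the first was 0.84 (adjusted p = 0.0721, limma), after quantile normalization the first was 0.64 (adjusted p = 0.0608, limma), and without 72 h replicate 2 the second was 0.77 (adjusted p = 0.0539, limma). The Khc peak at the start (2R:16271805-16272190) changed by -0.04 (adjusted p = 0.885, limma). One Klc peak at distance 0 (3L:12748602-12748938) had 24.9 and 28.4 in the 40 h libraries, 34.4 and 27.8 in those of 60 h, and 50.8 and 36.1 in those of 72 h and rose by 0.67 from 40 to 72 h (adjusted p = 0.0455, limma). That call did not hold without 40 h replicate 1 (0.58, adjusted p = 0.203, limma), 40 h replicate 2 (0.76, adjusted p = 0.147, limma) or 72 h replicate 1 (0.43, adjusted p = 0.332, limma), or after quantile normalization (0.42, adjusted p = 0.363, limma). The other Klc peak (3L:12749661-12750630) changed by -0.16 (adjusted p = 0.569, limma).

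None of the 8 peaks tested near Klp64D, Dhc64C and sw passed from 40 to 72 h by limma (1 at an unadjusted p under 0.05, higher). The changes of those nearest to the start were -0.18 at Klp64D (3L:5359072-5359461, adjusted p = 0.496, limma), -0.12 at Dhc64C (3L:4825357-4825645, adjusted p = 0.662, limma) and -0.24 at sw (X:20235890-20236394, adjusted p = 0.314, limma). The second Dhc64C peak, 803 bp from the start, changed by -0.40 (adjusted p = 0.207, limma). Peaks near sw may share reads with the Sdic copies.

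**Figure D5:**
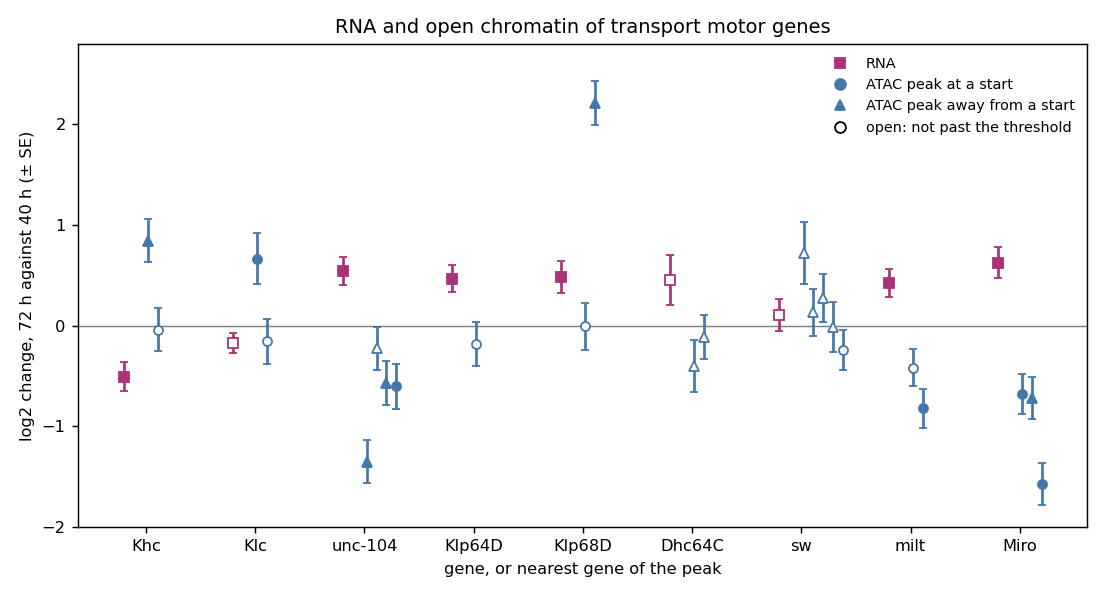
Log2 change from 40 to 72 h (± SE from limma) of each gene's RNA (squares) and of each tested peak nearest to it (circles at distance 0 from a start, triangles away from one). Filled symbols passed an adjusted p of 0.05. RNA and filled peaks have opposite signs at Khc, unc-104, milt and Miro and the same sign at Klp68D. Klp64D, Dhc64C and sw have no filled peak.

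Set side by side over 40 to 72 h, RNA and peaks past the test had opposite signs at 4 genes (Khc, unc-104, milt, Miro) and the same sign at 1 (Klp68D). Of all 1583 genes with RNA and at least 1 peak past the test, every such peak had the opposite sign in 25.9%, the same sign in 49.8%, and signs were mixed in 24.3%. The 5 motor genes are few, no test was made, and peaks at starts fell more often than they rose across the table. Scaled to recovered reads, the RNA rises did not pass at unc-104 (0.11), milt (0.0001), Miro (0.20) or Klp68D (0.05). RNA and chromatin come from separate libraries, and a nearest gene is an assignment by distance, so whether a peak acts on the gene was not tested.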

How the data were processed

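The authors deposited 1 table of RPKM per gene for 7 bulk RNA libraries and 1 table of levels per peak for 6 bulk ATAC libraries; the second names no unit and its values behave as RPKM of the peak. Bowtie2 2.2.9, MACS2 2.1.1, bedtools and edgeR 3.26.8 are named in the submitters' processing notes, without roles, and the genome build is not given in the sources used here. The other numeric columns used are each peak's width and distance to a gene start, as deposited. Whole reads could be recovered from 99.97% of RNA genes (within 0.01 read) and 100% of peaks (within 0.1 read), giving 22.5 to 39.5 M reads a library in genes and 12.7 to 19.8 M in peaks.

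Values were taken as log2(RPKM + 1) and fitted over the 3 ages with limma 3.58.1 in R 4.3.3 (trended eBayes, two-sided), with Benjamini-Hochberg adjustment at 0.05 over the 6939 genes with at least 1 RPKM in 2 libraries and the 23508 peaks with a mean above the lowest 10%. The RPKM scale rests on effective library sizes read back from the deposited values (22.1 to 46.1 M in RNA, 13.8 to 18.3 M in ATAC). Recovered reads exceeded them at 72 h in RNA and at 40 h in ATAC, so they are not plain read totals. Scaling to recovered reads removes any adjustment between libraries that they carry. The ratio of recovered reads to these sizes was 0.832 to 0.857 at 40 h, 0.998 to 1.02 at 60 h and 1.10 to 1.19 at 72 h in RNA, and 1.08 to 1.25, 0.983 to 0.984 and 0.870 to 0.880 in ATAC, so the choice of scale moves all changes together. limma was tested on simulated data. Samples were grouped by labelled age. The other settings tried were a pseudocount of 0.1, no filter, quantile normalization, a replicate block, limma-voom on recovered reads, no trend, and leaving out each library. Scaling to recovered reads, and leaving out 60 h RNA replicates 1 and 2 for their photoreceptor RNA, were chosen after seeing the data. Members, lists and tests were chosen with earlier results of these data known. Of each list, the genes named are those past the test from 40 to 72 h, at most the 4 with the largest change, and any that makes up a count of 5 or fewer (Liprin-alpha and clu, the 1 that fell in each list). Peaks named are the one nearest to each start and the 4 with the largest change, with the additions marked in the text. Not found in the RNA table were Cdlc2, NudC, Spindly, strip, park and 13 kinesins, and these were not analysed here. The 8 single-cell samples were not analysed here.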

Additional observations from a re-analysis of the deposited data

Results flagged for a closer look

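For 3 results the change between 60 and 72 h differed from the change between 40 and 60 h by a test of the difference itself (limma, adjusted over all genes or peaks). For Klc RNA the second step minus the first was -0.62 (adjusted p = 0.0152, limma), with all 3 libraries of 60 h above all others. This lost its call after quantile normalization (-0.36), without 60 h replicate 1 (-0.57) and without 60 h replicate 2 (-0.62). For Miro RNA the difference was 0.77 (adjusted p = 0.0371, limma), and the call held in 7 of 15 alternatives, with values between 0.51 and 0.90. For the Klp68D peak 2045 bp from the start the difference was -2.39 (adjusted p = 0.00274, limma), and it passed in all 13 alternatives. Causes were not tested.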

How the results depend on the processing

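Counts of members past the test depended on scaling and on single libraries. After quantile normalization the RNA counts were 0 in place of 1 (40 to 60 h, 49.8% of all genes passed) and 1 in place of 2 (difference of steps, 26.9%). The ATAC count from 40 to 60 h was then 2 in place of 4, where 21.2% of all peaks passed. It was 1 in place of 0 from 60 to 72 h (7.52%) and 5 in place of 10 from 40 to 72 h (43%). Scaled to recovered reads, 2 genes in place of 6 passed from 40 to 72 h. Without an eBayes trend 0 genes differed between steps. With 60 h replicate 3 as the sole RNA library of its age, fewer members and fewer of all genes passed. Klp64D then changed by 0.47 from 40 to 60 h. From 60 to 72 h unc-104 changed by 0.33, Miro by 0.57 and Klc by -0.35. With each library left out in turn, the RNA counts ranged from 0 to 2 (40 to 60 h), 2 to 3 (60 to 72 h), 1 to 6 (40 to 72 h) and 0 to 2 (difference of steps), and the ATAC counts from 1 to 4, 0 to 2 and 5 to 11 over the 3 comparisons of ages. Whether replicate numbers pair the samples was not settled. Same-numbered deviations correlated at -0.0866 to 0.216 in RNA and -0.468 to 0.546 in ATAC. With 2 libraries at an age their deviations mirror each other, so these values cannot decide it. With the replicate number as a block, RNA replicate 3 of 60 h is the only library of its number, so it adds nothing to the comparisons of ages. In that setting 1 gene in place of 2 differed between steps. The change of unc-104 from 40 to 60 h was -0.0036, the same as with that library left out. Of the list counts from 40 to 60 h, dynein regulators went to 1 (2 without the block) and other kinesins to 0 (1 without it). No other count moved by over 1.5 times. Of the list counts for 40 to 72 h, those of dynein and dynactin, adaptors and mitochondrial dynamics stayed within 1.5 times in all 15 alternatives, and for the dynein regulators (2) and other kinesins (2) the ranges were 2 to 4 and 1 to 3. Over 60 to 72 h the regulators and other kinesins, 1 each, ranged from 0 to 1 and 0 to 2.

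Signs turned only among values that had not passed, and none passed after turning. From 40 to 60 h these were Khc (0.0081 with 60 h replicate 3 alone), Klc (-0.15 after quantile normalization, -0.031 scaled to recovered reads), unc-104 (-0.11 and -0.18 in that order, and -0.034 to 0.17 with a library left out), Dhc64C (-0.054, recovered reads), Klp68D (-0.059, recovered reads, and -0.050 to 0.43 with a library left out) and Miro (0.06 with 60 h replicate 3 alone, -0.14 to 0.042 with a library left out). From 60 to 72 h they were Klp64D (-0.038 after quantile normalization, -0.16 scaled to recovered reads, -0.0063 with 60 h replicate 3 alone, -0.13 to 0.17 with a library left out), milt (-0.041, recovered reads), the Klp68D peak away from the start (0.027 and 0.078 under quantile normalization and recovered reads, -0.18 to 0.0040 with a library left out) and the Khc peak away from the start (-0.067 to 0.079 with a library left out). From 40 to 72 h they were sw RNA (-0.31) and the peaks nearest to the starts of Khc (0.36), Dhc64C (0.28), sw (0.16), Klp64D (0.22) and Klp68D (0.39), all scaled to recovered reads, and the milt peak nearest to the start (0.058, quantile normalization). With a library left out, the peaks at the starts of Khc, Klp64D and Klp68D ranged from -0.11 to 0.033, -0.37 to 0.0036 and -0.14 to 0.13. Every motor gene had 1371 or more reads per library, and the part of counting error in the spread between libraries was not tested. The causes of these differences were not tested.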
